A study of Mus musculus with 23 samples.

Results

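The comparison sets 3 cultures of expanded, proliferating mouse myoblasts against 3 mouse embryonic stem cell lines, all measured as total RNA on 1-colour Agilent arrays. These are 6 of the 22 samples of the series, on 7 of its 23 arrays, and they were chosen by their labels alone. The series runs from pluripotent cells through cultured muscle precursors to whole muscle. Myoblast replicates 1, 2 and 3 were primary C57BL/6J muscle precursor cells of cultures 21, 26 and 28, all labelled male, taken in proliferation at passages 8 to 10. They were grown on rat tail collagen in Ham's F-10 medium with fetal bovine serum and the growth factor bFGF. Stem cell replicates 1, 2 and 3 were the lines cGR8 (129Sv, labelled male), RD1 (129X1/SvJ, labelled male) and E14tg2 (129/Ola, sex not labelled). E14tg2 was hybridised on 2 arrays, which were averaged to 1 sample. Their culture conditions are not given in the sources used here. Strain and developmental lineage both differ between the groups and cannot be told apart, and no group had any genetic or drug treatment in its labels.

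Embryonic stem cells are held in a self-renewing state by a network of transcription factors around Oct4, Sox2 and Nanog, fed by LIF and BMP signals and tied to a distinctive metabolism of threonine, glycine and glucose. Myoblasts descend from satellite cells, the stem cells of skeletal muscle. They express the bHLH factor MyoD, which binds the E-box CANNTG with an E-protein partner. They leave the cell cycle when Myogenin and the Mef2 factors take over.

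Promoter sequences of Chrna1, Myog and Nanog are shown as examples that hold the words read by these factors, beside genes on each side of the comparison. They were chosen for holding a word, and the windows read for Actc1 (CANNTG), Lin28a and Pou5f1 (TTTGCAT) held none. Nanog and Pou5f1 have 2 windows each, and only 1 was read, the second for Nanog and the first for Pou5f1. The Nanog window also holds CAGGTG, left unmarked, so E-box words are not confined to the muscle genes. Each is the 250 bases before the RefSeq start site on build GRCm38.p6, printed 5′ to 3′ on the gene's own strand, with capitals for CANNTG in the muscle genes and for TTTGCAT, the core of the octamer read by Oct4, in Nanog. Chrna1, the muscle acetylcholine receptor subunit, lies on the minus strand at chr2:73580339-73580588, Myog on the plus strand at chr1:134289754-134290003 and Nanog on the plus strand at chr6:122707315-122707564.
Chrna1: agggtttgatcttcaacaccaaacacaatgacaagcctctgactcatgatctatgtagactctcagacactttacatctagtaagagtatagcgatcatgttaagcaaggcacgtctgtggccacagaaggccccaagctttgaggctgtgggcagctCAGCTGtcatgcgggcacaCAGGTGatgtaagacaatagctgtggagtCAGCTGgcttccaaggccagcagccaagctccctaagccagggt
Myog: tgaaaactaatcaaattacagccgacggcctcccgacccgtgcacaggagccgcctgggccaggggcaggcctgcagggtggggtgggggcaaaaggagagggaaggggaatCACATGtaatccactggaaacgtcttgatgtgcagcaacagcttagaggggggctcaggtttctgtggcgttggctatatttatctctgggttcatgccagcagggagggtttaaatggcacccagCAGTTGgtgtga
Nanog: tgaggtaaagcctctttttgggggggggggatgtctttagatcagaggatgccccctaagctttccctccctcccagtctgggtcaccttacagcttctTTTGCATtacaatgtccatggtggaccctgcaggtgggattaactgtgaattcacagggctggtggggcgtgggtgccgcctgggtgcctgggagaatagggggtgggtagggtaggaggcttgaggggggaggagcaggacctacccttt
In Chrna1 the word CAGCTG starts 92 and 44 bases before the start site, and CAGGTG starts 73 bases before it. In Myog CACATG starts 138 and CAGTTG 12 bases before the start site, and the Nanog word starts 151 bases before its own. Counting both strands, CANNTG was found in 72.3% and TTTGCAT in 4.63% of all 32851 RefSeq promoter windows of 300 bases, so a match is a description of the letters and not a binding site.

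Levels are log2 of the processed signal minus the log2 of the 75th percentile of the same array, so that a level of 0 is that percentile. The number of arrays limits the precision. The array of myoblast replicate 1 was dim. Its 75th percentile was 87.7 intensity units against 494 to 681 on the other 6 arrays, 41.2% of its spots were well above background against 51.9% to 60.1%, and its lowest level well above background was -1.87 against -4.82 to -4.38. A gene near background therefore has a higher relative level on that array than on the others. Across genes, which are not independent replicates, replicate 1 correlated with replicates 2 and 3 at r = 0.896 and 0.869, those with each other at 0.97, the stem cell lines with each other at 0.973 to 0.986, and the groups with each other at 0.745 to 0.781. The median SD across genes was 0.725 in myoblasts and 0.317 in stem cells. Slide 1 held cGR8 and myoblast replicate 1, slide 2 held RD1 and replicate 3, and slide 3 held E14tg2 and replicate 2, so each slide gave a difference of its own. The second E14tg2 array lay on slide 1 and enters the averaged E14tg2 sample but not the slide differences. The all-gene median of that difference was 0.22, -0.21 and -0.11 on slides 1, 2 and 3. One library went against its sex label. In myoblast replicate 2 the Y-linked genes Ddx3y, Eif2s3y and Uty were not well above background, at -6.40, -6.58 and -6.39, while the X-inactivation RNA Xist was, at 1.20 and 0.06 on its probes. Xist was well above background in none of the other 5 samples, and Ddx3y and Eif2s3y were in all 5. On the same probe Uty was above it in the lines and replicate 3 but not in replicate 1, at -3.98. The passage 0 and myotube arrays of culture 26 had the same pattern as replicate 2.

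Limma called 2446 of 21258 genes higher in myoblasts (11.5%) and 3062 lower (14.4%) where the adjusted p was below 0.05 and the difference at least 2-fold. By probe the counts were 3229 of 29141 higher (11.1%) and 4308 lower (14.8%). The median log2 change of all genes tested was -0.03. Without the dim array of replicate 1 the counts were 3997 higher (17.7%) and 4728 lower (21%) of 22533 genes, which held 2435 and 3060 of the calls above. Without replicate 2, whose sex label did not match, 1745 genes were higher (8.11%) and 2027 lower (9.43%). Leaving out a stem cell line gave 1407 to 1613 higher (6.29% to 7.51%) and 1525 to 1768 lower (6.81% to 8.24%). Counts in the gene lists below are to be set beside the all-gene shares of the same setting. Of the lower genes 959 (31.3%) were well above background in no myoblast sample, and of the higher genes 240 (9.81%) in no stem cell sample. For these, where a fold is printed it is a lower bound set against the array's lowest measurable signal. Among the 14804 genes measured in every sample of both groups 1865 were higher and 1157 lower, so the split turned towards higher calls. Folds depend on the background correction, and of 183 called genes named in the text 108 had a fold lower by over 1.5 times with normexp correction and 101 in the authors' values.

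**Figure D1:**
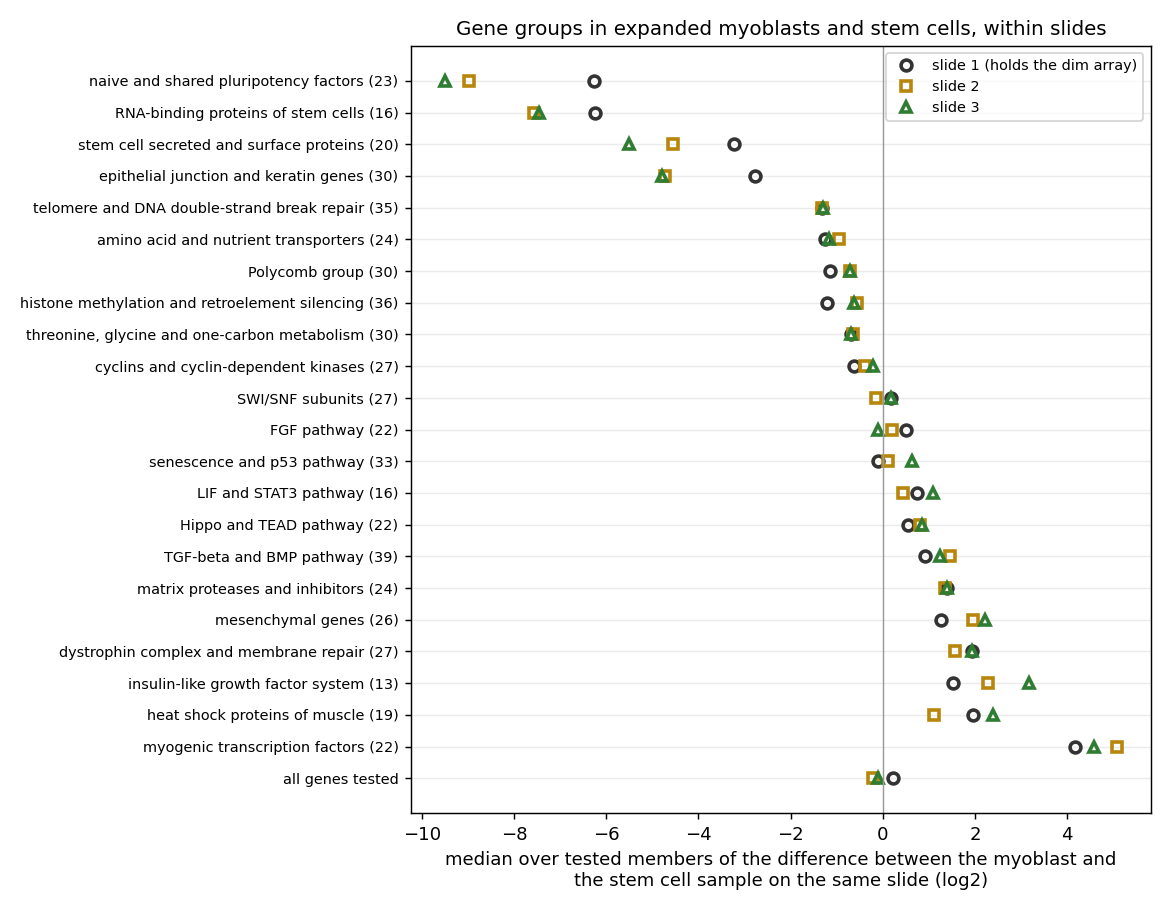
Median log2 difference (myoblast minus stem cell) over the tested members of gene lists, with 1 symbol for each of the 3 slides, the number of tested members in brackets and all genes tested in the bottom row. Lists of pluripotency, RNA-binding and epithelial genes lie to the left on all 3 slides, and those of myogenic factors, heat shock and dystrophin complex genes to the right.

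The transcription factors of the pluripotent state were lower in myoblasts across nearly the whole list. Of 23 tested 21 were lower and none higher, against 14.4% lower over all genes, with a median log2 change of -8.87, or -7.43 with unmeasured genes at their bound. The medians were -6.26, -8.97 and -9.50 on slides 1, 2 and 3, and 22 were lower without replicate 1. Prdm14, which represses genes of differentiation and FGF signalling, stood at 0.71, 1.43 and 1.31 in cGR8, RD1 and E14tg2 and was above background in no myoblast sample (at least 28.7-fold, adjusted p = 6.10e-04). The same held for Tfcp2l1, a target of LIF signalling, at 3.29, 4.32 and 3.59 in the lines (at least 172-fold, adjusted p = 4.34e-04). Both were tested through their signal in the lines, so a lack of overlap between the groups adds nothing. The nuclear receptor Nr5a2 (at least 179-fold), the AKT coactivator Tcl1 (at least 282-fold) and Mycn (at least 179.8-fold), a driver of stem cell growth, were likewise measured only in the lines. Nanog, whose printed promoter window holds the octamer core, had 2 probes that were called in opposite directions. The brighter was at 5.57, 6.56 and 6.09 in the lines and above background in no myoblast sample (at least 872-fold, adjusted p = 9.20e-05), and the dimmer was higher in myoblasts, at 2.07, -0.85 and -0.06 against -1.51, -2.37 and -2.52 (5.74-fold, adjusted p = 0.0427). The dimmer probe lost its call without cGR8, RD1, E14tg2 or myoblast replicate 3 (adjusted p = 0.0808, 0.133, 0.154 and 0.075). Esrrb, an orphan nuclear receptor that sustains self-renewal, was measured everywhere, at 6.15, 6.79 and 7.08 in the lines and -0.67, -2.65 and -1.42 in myoblast replicates 1, 2 and 3 (log2 change -8.25 ± 0.57 SE, 305-fold, adjusted p = 1.27e-04).

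The Krüppel-like factors of this network were lower but remained measurable in myoblasts. Klf4 stood at 3.07, 3.68 and 3.75 in the lines and 0.46, 1.80 and 1.50 in myoblasts (log2 change -2.25 ± 0.47 SE, 4.75-fold, adjusted p = 0.0114). Klf5 differed by -2.61 (adjusted p = 0.00785) and Klf2 by -3.98 (adjusted p = 5.19e-04). All 3 were well above background in every myoblast sample, with no overlap between the groups. Sall4 was not called, at 0.63, 0.34 and 0.60 in the lines and 0.92, -0.82 and -1.44 in myoblasts on its brightest probe (log2 change -0.97 ± 0.61 SE, adjusted p = 0.301), although its other two probes were called lower (log2 change -9.03 and -4.56, adjusted p = 2.49e-04 and 0.0294). The second of these lost its call on leaving out any sample but myoblast replicate 1 (adjusted p from 0.0815 to 0.109). The call of Klf4 was lost without RD1 or E14tg2 (adjusted p = 0.0606 and 0.0665) and with median scaling (adjusted p = 0.0536). Sall4 was called lower without myoblast replicate 1 (adjusted p = 0.00523).

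Secreted and surface proteins of stem cells followed, with 15 of 20 lower and 1 higher, a median of -4.46, and slide medians of -3.24, -4.54 and -5.50. Fgf4, the autocrine signal that primes stem cells for differentiation, stood at 5.90, 5.98 and 5.93 in the lines and was above background in no myoblast sample (at least 792-fold, adjusted p = 2.40e-04). Nodal, a TGF-beta ligand of the early embryo, stood at 3.72, 3.44 and 4.20 against -1.94, -2.27 and -3.63 (log2 change -6.40 ± 0.53 SE, 84.6-fold, adjusted p = 2.19e-04), and its inhibitors Lefty1 (99.2-fold) and Lefty2 (53.8-fold) were lower with it. Bmp4 was at 2.70, 4.93 and 4.79 in the lines, lowest in cGR8, and at -0.81, -1.56 and -2.87 in myoblasts (log2 change -5.89 ± 0.76 SE, 59.4-fold, adjusted p = 0.00136). The 1 higher member was Spp1, osteopontin, a secreted phosphoprotein that binds integrins, at 5.58, 7.15 and 7.31 in myoblasts and 2.92, 3.84 and 3.22 in the lines (log2 change 3.35 ± 0.56 SE, 10.2-fold, adjusted p = 0.00422). The tetraspanin Cd9 was not called, at 3.27, 4.13 and 3.45 and 3.48, 4.39 and 4.31. Signal in the lower group was well above background for Nodal and Lefty2 in 2 of 3 samples, so the size is approximate.

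RNA-binding proteins of stem cells were lower in 13 of 16 cases, with a median of -7.13 (-5.79 with bounds) and slide medians of -6.24, -7.56 and -7.46. Lin28a, which blocks maturation of let-7 microRNAs, stood at 4.93, 4.68 and 4.81 in the lines and -0.19, -1.85 and -1.61 in myoblasts (log2 change -6.02 ± 0.50 SE, 64.9-fold, adjusted p = 2.30e-04). Its paralogue Lin28b was at 2.99, 2.64 and 3.24 in the lines and above background in no myoblast sample (at least 100.5-fold). The let-7 target Trim71, a ubiquitin ligase that represses mRNAs, was at 4.29, 4.35 and 4.42 in the lines and measured in 1 myoblast sample (log2 change -8.54 ± 0.94 SE, 373-fold, adjusted p = 7.07e-04), and the mRNA-stabilising Igf2bp1 was at least 253-fold lower. Lin28a did not overlap between the groups. Lin28b, Trim71 and Igf2bp1 were tested through their signal in the lines, so a lack of overlap adds nothing for them. L1td1, derived from a retrotransposon, was 417-fold lower, at -3.86, -0.99 and -0.14 in myoblasts against 6.56, 7.27 and 7.30. On the lower side signal was well above background for Trim71 in 1 of 3 and L1td1 in 2 of 3 samples, and the size is approximate.

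Genes of the rare 2-cell-like state, which flickers on in few cells of a stem cell culture, were lower in 5 of 8 cases. Zscan4f, which acts in telomere recombination, stood at 3.54, 3.67 and 4.04 in the lines and Zscan4c at 1.87, 2.17 and 3.21, and neither was above background in any myoblast sample (at least 174-fold and at least 69.2-fold). These genes belong to a multigene family whose probes may share targets. Fewer cells of the state and less RNA per cell cannot be told apart in these bulk samples, here or in any result that follows. Lower calls numbered 3 without cGR8, 2 without E14tg2, 3 without myoblast replicate 2 and 7 without replicate 1.

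**Figure D2:**
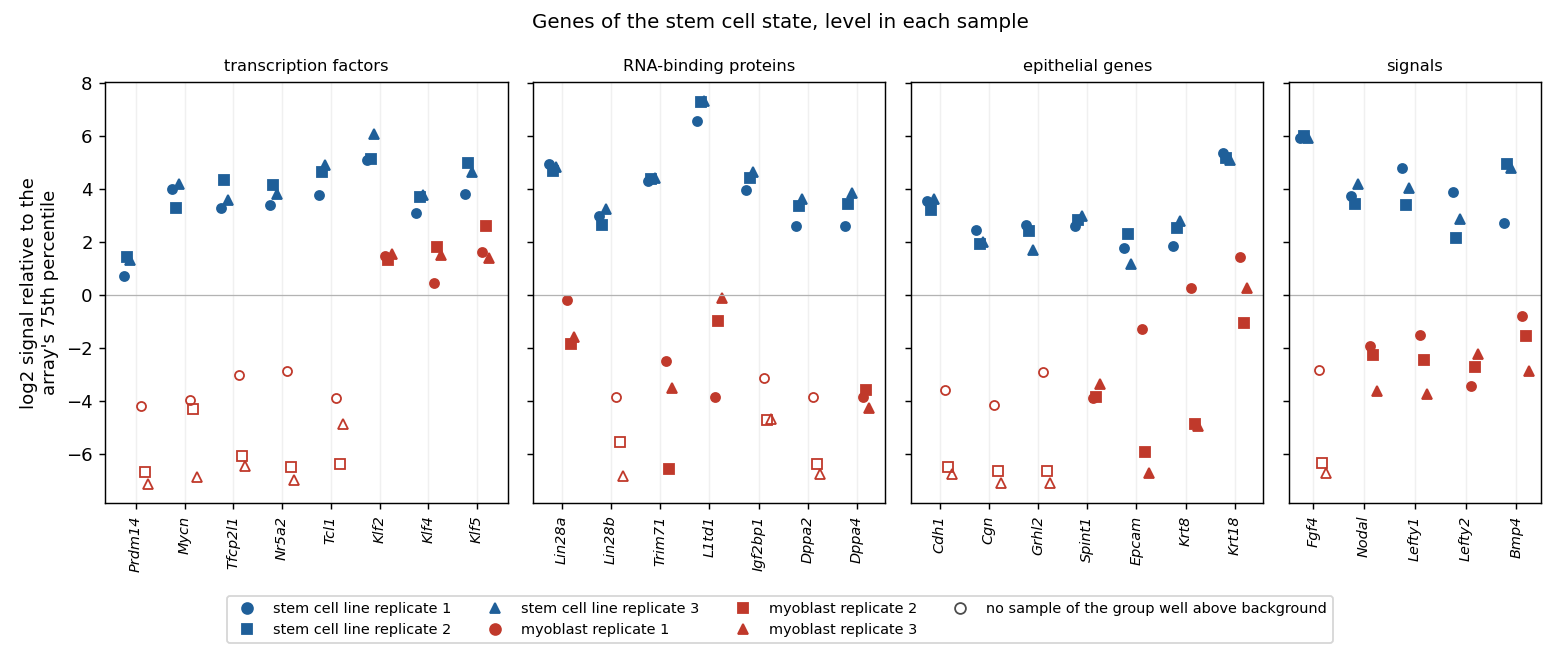
Level of genes of the stem cell state in each of the 6 samples (log2 signal, with 0 at the 75th percentile of the array), with open symbols where no sample of the group was well above background. The Klf genes were well above background in every myoblast sample, while Prdm14, Tfcp2l1, Fgf4 and Lin28b were above background in none.

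The muscle transcription factors were higher as a group. Of 22 tested 15 were higher and none lower, against 11.5% higher over all genes, with a median log2 change of 4.65 (4.04 with bounds) and slide medians of 4.17, 5.08 and 4.58. Without replicate 1 there were 16 higher and 2 lower, and without E14tg2 1 was lower. Chrna1 and Myog, whose promoter windows hold the E-box words, were above background in no line. Chrna1 was at 8.07, 8.24 and 7.75 in myoblast replicates 1, 2 and 3 (at least 6437-fold, adjusted p = 2.58e-05) and Myog at 6.07, 5.96 and 4.20 (at least 1053-fold, adjusted p = 5.39e-05). Six2, a homeobox factor, was above background in no line and at 4.00, 1.98 and 2.82 in myoblasts (at least 185-fold, adjusted p = 1.40e-04), and its cofactors Eya4 (58.8-fold) and Eya2 (29-fold) were higher as well. Six4 was not called (log2 change 1.06 ± 0.56 SE, adjusted p = 0.214). Six4 was called higher without myoblast replicate 1 (adjusted p = 0.00259). Sizes are approximate where the lower group was partly at background, being well above it for Eya4 in 1 of 3 samples.

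Factors that pattern particular muscles in the embryo were also measured in these cultures. Pitx3 was at 5.13, 5.66 and 4.48 in myoblasts and -1.96, -2.49 and -2.80 in the lines (log2 change 7.50 ± 0.45 SE, 182-fold, adjusted p = 8.66e-05). Lbx1, needed by myoblasts that migrate into limbs, was 84.2-fold higher, and Pax3, its upstream factor in the embryo, was at -0.31, 1.29 and 0.55 in myoblasts and -3.50, -4.45 and -3.83 in the lines (log2 change 4.44 ± 0.51 SE, 21.7-fold, adjusted p = 8.69e-04). Tbx1, a factor of head and pharyngeal muscle, was at 4.22, 1.67 and 4.23 in myoblasts, with replicate 2 the lowest, and at -5.00, -4.02 and -3.31 in the lines (log2 change 7.48 ± 0.79 SE, 179-fold, adjusted p = 5.81e-04). Mef2c, a partner of Myogenin, was above background in no line and low in every myoblast sample, at -0.99, -1.39 and -1.55 (at least 9.97-fold, adjusted p = 2.40e-04). Mef2a was not called (log2 change -0.40 ± 0.52 SE, adjusted p = 0.616). Myf6, a late member of the MyoD family, was at -0.71, -2.96 and -2.84, highest on the dim array (at least 5.5-fold, adjusted p = 0.00641). The call of Myf6 was lost with normexp correction (adjusted p = 0.0531). The lower group was well above background for Tbx1 in 2 of 3 samples, so the size is approximate.

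The HLH proteins that restrain MyoD were higher in the same cultures. Id3, which binds E proteins and keeps them from MyoD, stood at 7.23, 7.20 and 6.43 in myoblasts and 1.06, 2.00 and 2.70 in the lines (log2 change 5.03 ± 0.51 SE, 32.8-fold, adjusted p = 5.15e-04). Id1 was 8.99-fold and Id2 5.37-fold higher, while Id4 was not called (log2 change 0.74 ± 0.34 SE, adjusted p = 0.163). Hes6, which favours muscle differentiation, was at 8.21, 7.86 and 6.70 against 3.72, 2.19 and 3.19 (log2 change 4.56 ± 0.57 SE, 23.6-fold, adjusted p = 0.00122). In all 7 of 14 tested members were higher and 1 was lower, with a median of 1.53 and slide medians of 0.94, 1.40 and 1.65. The lower one was Bhlhe40 (log2 change -2.63 ± 0.57 SE, adjusted p = 0.0128), and the lower count was 0 without RD1 or E14tg2 and 2 without replicate 1. The call of Id2 was lost without cGR8, RD1, myoblast replicate 2 or myoblast replicate 3 (adjusted p = 0.118, 0.107, 0.104 and 0.0847) and with median scaling or every probe tested (adjusted p = 0.14 and 0.0873). The call of Bhlhe40 was lost without RD1 or E14tg2 (adjusted p = 0.0601 and 0.0563) and with normexp correction (adjusted p = 0.0579).

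Genes of the muscle membrane, among them a caveolin, sarcospan and sarcoglycans, were higher more often than lower. Of 27 genes of the dystrophin complex and of membrane repair 16 were higher and 1 was lower, with a median of 1.81 and slide medians of 1.93, 1.56 and 1.94. Cav3, the muscle caveolin, stood at 5.91, 4.79 and 3.14 in myoblasts but in no line above background (at least 606-fold, adjusted p = 8.66e-05). Sspn, sarcospan, was at 4.09, 4.22 and 3.99 against -3.26, -4.66 and -4.79 (log2 change 8.34 ± 0.49 SE, 323-fold, adjusted p = 8.48e-05), and Trim72, which helps seal torn membranes, was at least 44.2-fold higher. The ubiquitous sarcoglycans Sgcb (10.5-fold) and Sgce (3.94-fold) were higher as well. The call of Sgce was lost without cGR8 or E14tg2 (adjusted p = 0.0585 and 0.0599) and with median scaling or every probe tested (adjusted p = 0.125 and 0.0544). Signal in the lower group was well above background for Sspn in 2 of 3 samples, so the size is approximate.

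Dystrophin went the other way on its single probe. Dmd was at -1.29, -2.04 and -2.32 in the lines and above background in no myoblast sample (at least 3.51-fold, adjusted p = 0.00621). The probe lies at chrX:82389391-82389450 on mm9 and reads only the transcripts that include it, so the full-length muscle form is not told apart from the shorter ones. Its paralogue Utrn was at 0.07, 1.70 and 1.72 in myoblasts and 2.28, 1.80 and 1.49 in the lines and was not called (log2 change -0.69 ± 0.54 SE, adjusted p = 0.405), nor was the dystroglycan gene Dag1 (log2 change -0.50 ± 0.54 SE, adjusted p = 0.54). Without replicate 1 3 members of the list were lower. The call of Dmd was lost with normexp correction (adjusted p = 0.207).

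Small heat shock proteins that bind sarcomere and filament proteins were higher more often than lower. Of 19 muscle heat shock genes 11 were higher and 1 lower, with a median of 2.38 and slide medians of 1.96, 1.11 and 2.39. Hspb3 was at 2.70, 1.58 and 0.69 in myoblasts and above background in no line (at least 77.9-fold, adjusted p = 1.80e-04), and Cryab, which chaperones desmin, was at 6.70, 6.69 and 4.98 against 0.96, 1.35 and 1.59 (log2 change 4.82 ± 0.55 SE, 28.3-fold, adjusted p = 8.04e-04). In both, myoblast replicate 3 was the lowest of its group, and in Cryab it lay above every line. The lower member was Hsp90aa1, the inducible cytosolic Hsp90, at 5.64, 6.33 and 6.51 in myoblasts and 7.98, 8.21 and 8.24 in the lines (log2 change -1.98 ± 0.39 SE, 3.95-fold, adjusted p = 0.00877). The number lower was 0 without RD1 or E14tg2. The call of Hsp90aa1 was lost without RD1 or E14tg2 (adjusted p = 0.0556 and 0.0571) and with median scaling (adjusted p = 0.0533).

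**Figure D3:**
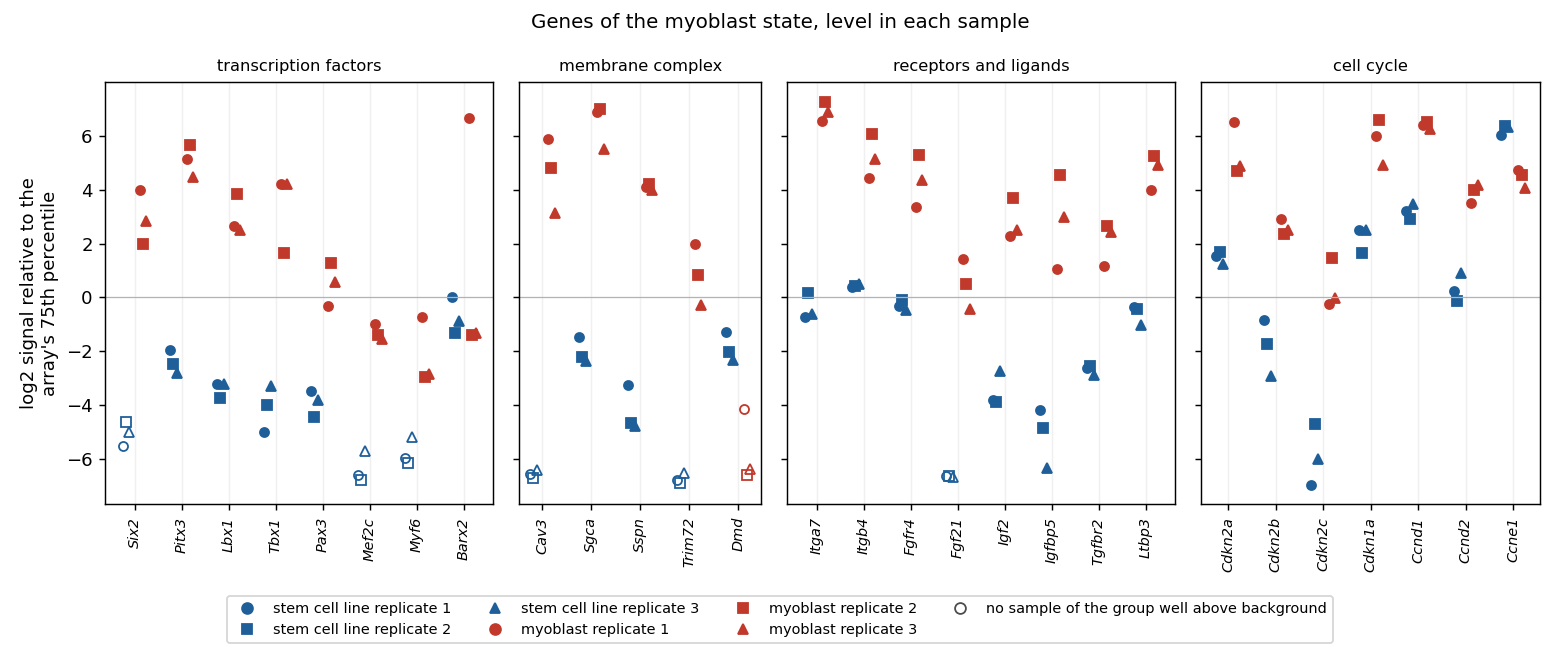
Level of genes of the myoblast state in each of the 6 samples (log2 signal, with 0 at the 75th percentile of the array), with open symbols where no sample of the group was well above background. Cav3, Six2 and Fgf21 were above background in no stem cell line, Dmd in no myoblast sample, and the red and blue symbols do not overlap for any gene shown except Barx2. All genes shown but Barx2 had been called. Cav3, Six2, Fgf21 and Dmd, among others, were tested through the group where they were high, so a lack of overlap adds nothing.

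Integrins and laminins, the receptors and ligands that tie a muscle cell to its basement membrane, differed by chain. Itga7, the laminin receptor of muscle, stood at 6.55, 7.28 and 6.91 in myoblasts and -0.72, 0.17 and -0.61 in the lines (log2 change 7.30 ± 0.42 SE, 158-fold, adjusted p = 7.82e-05), and Itgb4 was 27.8-fold higher. The shared beta chain Itgb1 was not called (log2 change 0.81 ± 0.42 SE, adjusted p = 0.21). Lama2, the laminin chain of mature muscle, was at 1.19, 4.04 and 3.53 against -2.87, -3.81 and -3.87 (log2 change 6.44 ± 0.75 SE, 86.6-fold, adjusted p = 9.18e-04), while Lama1, the laminin chain of the early embryo, was at 3.69, 5.21 and 5.08 in the lines and above background in no myoblast sample (at least 327-fold, adjusted p = 6.16e-04). The 2 chains thus lay on opposite sides of the comparison, and Lama1 was tested through its signal in the lines. Of 16 integrins 4 were higher and 2 lower (median 0.75), against 11.5% and 14.4% over all genes. Without replicate 1, 9 of 18 were higher, against 17.7% over all genes. Of 20 basement membrane genes 5 were higher and 2 lower (median 0.58), and 8 were higher and 5 lower without replicate 1. The higher count of the latter was 3 without cGR8, RD1 or myoblast replicate 2, and the lower count 1 without any of the 3 lines. Itgb1 was called higher without myoblast replicate 1 (adjusted p = 0.021).

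Matrix proteases and their inhibitors were higher in 11 of 24 cases and lower in 2, with a median of 1.54 and slide medians between 1.34 and 1.40. Timp2, a metalloprotease inhibitor, was at 7.11, 8.02 and 7.53 in myoblasts and 2.43, 0.73 and 0.45 in the lines (log2 change 6.35 ± 0.59 SE, 81.5-fold, adjusted p = 3.47e-04). Timp1 was 9.41-fold and Adamts4 13.6-fold higher, and Plau, urokinase, was above background in no line (at least 17.9-fold). The 2 lower members were Adamts15 (at least 3.46-fold) and Adamts9 (3.17-fold). Their count was 0 without cGR8 and 1 without RD1, without E14tg2 and without myoblast replicate 2. The call of Adamts15 was lost without cGR8 (adjusted p = 0.0518) and with normexp correction (adjusted p = 0.255). The call of Adamts9 was lost without cGR8, RD1, E14tg2, myoblast replicate 2 or myoblast replicate 3 (adjusted p = 0.112, 0.151, 0.0682, 0.0657 and 0.0681) and with normexp correction or every probe tested (adjusted p = 0.207 and 0.115). On the lower side signal was well above background for Adamts9 in 2 of 3 samples, and the size is approximate.

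Genes of epithelial junctions were lower and mesenchymal genes higher. Of 30 epithelial genes 22 were lower and 1 higher, with a median of -4.37 (-3.71 with bounds) and slide medians of -2.77, -4.73 and -4.79. Cdh1, E-cadherin, stood at 3.54, 3.19 and 3.61 in the lines and was above background in no myoblast sample (at least 141-fold, adjusted p = 3.02e-04), as were cingulin Cgn (at least 56-fold) and the epithelial regulator Grhl2 (at least 62-fold). Krt18 was at 5.36, 5.16 and 5.08 in the lines and 1.45, -1.08 and 0.27 in myoblasts (log2 change -4.98 ± 0.63 SE, 31.7-fold, adjusted p = 0.00125). Epcam was well above background in 1 myoblast sample and stood at -1.29, -5.93 and -6.73 in myoblasts, highest on the dim array, against 1.76, 2.31 and 1.15 (log2 change -6.39 ± 1.29 SE, 83.8-fold, adjusted p = 0.0098). The 1 higher member was Pkp1 (log2 change 2.00 ± 0.54 SE, adjusted p = 0.0304), and the higher count was 0 without RD1, E14tg2, or myoblast replicate 2 or 3. The call of Pkp1 was lost without RD1, E14tg2, myoblast replicate 2 or myoblast replicate 3 (adjusted p = 0.13, 0.0875, 0.0625 and 0.0567) and with normexp correction, median scaling, the authors' values, every probe tested, a slide block or 1 E14tg2 array (adjusted p = 0.0805, 0.0522, 0.0516, 0.0988, 0.0573 and 0.0624). Sizes are approximate where the lower group was partly at background, being well above it for Epcam in 1 of 3 samples.

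On the mesenchymal side 14 of 26 genes were higher and 2 lower, with a median of 2.18 and slide medians of 1.26, 1.97 and 2.23. Snai2, a repressor of E-cadherin, was at 2.55, 3.82 and 3.90 in myoblasts and -1.96, -2.94 and -2.50 in the lines (log2 change 5.89 ± 0.50 SE, 59.4-fold, adjusted p = 2.50e-04), and Zeb2 was 36-fold higher. Vim, vimentin, was at 8.16, 8.06 and 7.90 against 3.48, 3.91 and 3.59 (log2 change 4.38 ± 0.35 SE, 20.8-fold, adjusted p = 2.00e-04). Fibronectin, Fn1, was not called, at 4.50, 5.81 and 6.23 in myoblasts and 6.14, 5.77 and 6.03 in the lines (log2 change -0.46 ± 0.51 SE, adjusted p = 0.55). Tgfbi was lower (log2 change -4.53 ± 0.63 SE, adjusted p = 0.00195). The lower count was 5 without replicate 1 and 1 without any other single sample. Of 10 fibroblast markers Dcn, Ly6a, Pi16 and Thy1 were well above background in every myoblast sample, and Dpt, Lum and Postn in no sample of either group. Of the 5 tested Dcn alone was called, at -1.34, -1.90 and -2.53 in myoblasts and -3.04, -4.85 and -4.31 in the lines (log2 change 2.15 ± 0.57 SE, 4.43-fold, adjusted p = 0.0285). The summed relative signal of that list was 1.32 to 5.25 in myoblasts and 4.01 to 13.4 in the lines. The call of Dcn was lost without RD1, E14tg2 or myoblast replicate 2 (adjusted p = 0.125, 0.119 and 0.0855) and with normexp correction, the authors' values (fold under 2) or every probe tested (adjusted p = 0.0666, 0.0443 and 0.0901). The lower group was well above background for Dcn in 1 of 3 and Zeb2 in 2 of 3 samples, so the size is approximate.

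Intermediate filaments split between the groups, with 7 of 16 higher and 6 lower. Des, the muscle filament desmin, was at 6.04, 5.63 and 4.05 in myoblasts and -1.69, -0.94 and -0.66 in the lines (log2 change 6.34 ± 0.59 SE, 80.8-fold, adjusted p = 3.61e-04), syncoilin Sync was 27.8-fold higher and nestin, Nes, was at 6.15, 6.41 and 5.53 against 3.13, 0.86 and 2.12 (log2 change 3.99 ± 0.61 SE, 15.9-fold, adjusted p = 0.0029). The neuronal filament Ina was at 3.67, 2.91 and 3.80 in the lines and -0.40, -2.79 and -2.10 in myoblasts (log2 change -5.22 ± 0.65 SE, 37.3-fold, adjusted p = 0.00116). Lower calls numbered 3 without E14tg2.

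Among LIF pathway genes the receptor and the feedback inhibitor were lower. Lifr was at 1.44, 1.83 and 1.93 in the lines and -3.99, -0.34 and -0.36 in myoblasts, lowest on the dim array (log2 change -3.30 ± 0.94 SE, 9.82-fold, adjusted p = 0.0377, lower on each of its 3 probes). Socs3, which shuts off the receptor, stood at 3.88, 4.69 and 4.78 against 0.82, 1.63 and 0.46 (log2 change -3.48 ± 0.47 SE, 11.2-fold, adjusted p = 0.00161). The shared receptor chain Il6st (log2 change 0.63 ± 0.45 SE, adjusted p = 0.365) and Stat3 (log2 change -1.33 ± 0.47 SE, adjusted p = 0.0788) were not called. Cytokines of the family were higher, with Clcf1 at -0.79, -0.16 and 0.81 in myoblasts and above background in no line (at least 24-fold, adjusted p = 4.74e-04) and Il11 16.4-fold higher. In all 5 of 16 were higher and 3 lower (median 0.68), and the higher count was 2 without RD1 and 3 without E14tg2. The call of Lifr was lost without cGR8, RD1 or E14tg2 (adjusted p = 0.0987, 0.106 and 0.127) and with quantile normalization, median scaling or every probe tested (adjusted p = 0.112, 0.0736 and 0.0918). Stat3 was called lower without myoblast replicate 2 (adjusted p = 0.0319). Signal in the lower group was well above background for Lifr in 2 of 3 samples, so the size is approximate.

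FGF pathway genes were higher in 6 of 22 cases and lower in 4, against 11.5% and 14.4% over all genes, with a median of 0.10. Fgf21, a hormone that muscle releases under stress, was at 1.42, 0.50 and -0.42 in myoblasts and above background in no line (at least 35.1-fold, adjusted p = 1.40e-04). Fgfr4, the FGF receptor of myoblasts, was at 3.34, 5.28 and 4.38 against -0.31, -0.12 and -0.46 (log2 change 4.63 ± 0.53 SE, 24.7-fold, adjusted p = 8.28e-04), while Fgfr1 (log2 change 0.68 ± 0.42 SE, adjusted p = 0.283), Fgfr2 (log2 change 0.31 ± 0.48 SE, adjusted p = 0.677) and Fgfr3 (log2 change 0.21 ± 0.60 SE, adjusted p = 0.822) were not called. Of these 4 receptors Fgfr4 alone passed the test. The feedback gene Spry2 (log2 change -2.17 ± 0.36 SE, adjusted p = 0.00425) and the response factor Etv5 (log2 change -1.91 ± 0.38 SE, adjusted p = 0.00921) were lower. The number lower was 2 without cGR8, 1 without E14tg2, and 2 without myoblast replicate 2 or replicate 3. The call of Etv5 was lost without E14tg2 (adjusted p = 0.0587).

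Genes of the TGF-beta system were higher more often than lower. Of 39 genes 17 were higher and 5 lower, with a median of 1.46 and slide medians of 0.92, 1.46 and 1.25. Tgfb3 stood at 3.37, 4.13 and 2.55 in myoblasts and -0.23, -3.05 and -3.03 in the lines (log2 change 5.45 ± 0.82 SE, 43.7-fold, adjusted p = 0.00274), Tgfb1 was 5.39-fold higher, and Tgfb2 was not called (log2 change 1.68 ± 0.61 SE, adjusted p = 0.0814). Ltbp3, which stores latent TGF-beta in the matrix, was at 3.99, 5.24 and 4.94 against -0.37, -0.45 and -1.05 (log2 change 5.34 ± 0.46 SE, 40.6-fold, adjusted p = 2.51e-04). The receptor Tgfbr2 was at 1.17, 2.66 and 2.42 against -2.64, -2.54 and -2.87 (log2 change 4.77 ± 0.48 SE, 27.3-fold, adjusted p = 4.67e-04), while Tgfbr1 was not called (log2 change 0.89 ± 0.38 SE, adjusted p = 0.129). The BMP antagonist Grem1 was 128-fold higher and the ligand Bmp7 at least 20.7-fold lower, both against groups near background. Higher calls numbered 11 without RD1, 10 without E14tg2 and 24 without myoblast replicate 1, and the lower count was 3 without cGR8 and 2 without RD1, E14tg2, or myoblast replicate 2 or 3. Tgfb2 was called higher without myoblast replicate 1 (adjusted p = 0.00898). On the lower side signal was well above background for Grem1 in 1 of 3 samples, and the size is approximate.

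Of 13 genes of the insulin-like growth factor system 6 were higher and none lower, with a median of 1.90 and slide medians of 1.52, 2.27 and 3.16. Igf2, a growth factor that myoblasts secrete, stood at 2.29, 3.68 and 2.50 in myoblasts and -3.84, -3.88 and -2.75 in the lines (log2 change 6.31 ± 0.53 SE, 79.5-fold, adjusted p = 2.35e-04). Its imprinted neighbour H19, a noncoding RNA, was at 11.20, 10.12 and 9.57 against 0.51, 2.49 and -0.41 and was higher on all 7 of its probes (log2 change 9.43 ± 0.78 SE, 691-fold, adjusted p = 2.27e-04). Igfbp5, a binding protein of the muscle lineage, was at 1.05, 4.54 and 2.99 against -4.20, -4.86 and -6.35 (log2 change 8.00 ± 0.92 SE, 255-fold, adjusted p = 8.62e-04), and the signalling adaptor Irs1 was 75.8-fold higher. The receptors Igf1r (log2 change 1.90 ± 0.67 SE, adjusted p = 0.0777) and Igf2r (log2 change 0.42 ± 0.41 SE, adjusted p = 0.507) were not called. Without replicate 1 2 genes were lower. Igf1r was called higher without myoblast replicate 1 (adjusted p = 0.00107). Sizes are approximate where the lower group was partly at background, being well above it for Igfbp5 in 1 of 3 samples.

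Hippo pathway genes were mixed, with 6 of 22 higher and 2 lower, against 11.5% and 14.4% over all genes, and a median of 0.69. Ankrd1, a target of YAP and TEAD, had levels of 6.24, 6.38 and 6.60 in myoblasts and -1.94, -2.69 and -2.56 in the lines (log2 change 8.81 ± 0.38 SE, 448-fold, adjusted p = 3.59e-05), and Ccn1, another target, was 11.7-fold higher. Ccn2, a further target, was not called, at 2.74, -0.14 and 1.30 against 3.22, 2.39 and 3.18 (log2 change -1.63 ± 0.72 SE, adjusted p = 0.141). Neither Yap1 (log2 change -0.57 ± 0.42 SE, adjusted p = 0.367) nor Tead1 (log2 change 0.14 ± 0.66 SE, adjusted p = 0.897) was called, and Wwtr1, the gene of TAZ, missed the threshold (log2 change 1.86 ± 0.60 SE, adjusted p = 0.0553). The TEAD cofactors Vgll4 (50.9-fold) and Vgll2 (37.1-fold) and the kinase Lats2 (25.7-fold) were higher. The number higher was 12 of 24 without replicate 1, when 17.7% of all genes were higher. The lower count was 1 without any of the 3 lines. Ccn2 was called lower without myoblast replicate 1 (adjusted p = 0.00546). Wwtr1 was called higher without myoblast replicate 1 (adjusted p = 2.77e-04). The lower group was well above background for Vgll4 and Vgll2 in 1 of 3 samples, so the size is approximate.

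Other growth factor receptors and ligands of muscle were higher in 9 of 22 cases and lower in 2 (median 0.81). The interleukin-4 receptor Il4ra, which takes part in myotube growth, was at 0.54, 1.20 and 0.80 in myoblasts and -4.00, -4.95 and -4.89 in the lines (log2 change 5.46 ± 0.42 SE, 44-fold, adjusted p = 1.82e-04). Tnfrsf12a, the TWEAK receptor, was 26.2-fold and Met, the HGF receptor of satellite cells, 7.06-fold higher. The higher count was 14 without replicate 1 and 5 without RD1, without E14tg2 and without myoblast replicate 2. The lower count was 4 without replicate 1 and 1 without RD1 or E14tg2. Signal in the lower group was well above background for Il4ra in 1 of 3 samples, so the size is approximate.

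Polycomb genes, which place and read repressive histone marks, were lower more often than higher, with 11 of 30 lower, 4 higher, a median of -0.85 and slide medians of -1.14, -0.71 and -0.70. The lower ones included accessory subunits of PRC2, the complex that methylates histone H3 lysine 27. Jarid2 stood at 4.14, 4.44 and 4.57 in the lines and -1.45, -0.34 and -0.22 in myoblasts (log2 change -5.06 ± 0.45 SE, 33.3-fold, adjusted p = 2.85e-04), Epop at 5.92, 6.46 and 7.35 against 1.62, 1.39 and 0.91 (log2 change -5.27 ± 0.48 SE, 38.6-fold, adjusted p = 3.08e-04), and Mtf2 was 14.8-fold lower. Among the core subunits Eed (4.27-fold) and Suz12 (5.33-fold) were lower, while the catalytic subunit Ezh2 was not called (log2 change -0.76 ± 0.43 SE, adjusted p = 0.247). In PRC1, the complex that binds this mark, paralogues differed in direction. Phc1 was 9.25-fold lower and Phc2 10.2-fold higher, at 6.11, 5.92 and 5.49 in myoblasts against 2.29, 2.51 and 2.67, and Bmi1 (6.37-fold) was higher. Lower calls numbered 5 without RD1 and 5 without E14tg2, and the higher count 2 without RD1. The call of Eed was lost without RD1 or E14tg2 (adjusted p = 0.0611 and 0.064). The call of Suz12 was lost without cGR8, RD1, E14tg2 or myoblast replicate 2 (adjusted p = 0.124, 0.123, 0.101 and 0.0763) and with quantile normalization, median scaling, every probe tested or a slide block (adjusted p = 0.0605, 0.0955, 0.104 and 0.0568). The call of Bmi1 was lost without cGR8, RD1, E14tg2, myoblast replicate 2 or myoblast replicate 3 (adjusted p = 0.13, 0.0902, 0.0819, 0.121 and 0.102) and with quantile normalization, median scaling or every probe tested (adjusted p = 0.0516, 0.142 and 0.0919).

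Histone methylation and retroelement silencing genes were lower in 11 of 36 cases and higher in 4 (median -0.86, slide medians -1.21, -0.55 and -0.64). Kdm5b, a demethylase of histone H3 lysine 4, was lower on each of its 4 probes, at 6.80, 6.73 and 6.32 in the lines and 3.21, 3.68 and 3.81 in myoblasts (log2 change -3.05 ± 0.38 SE, 8.3-fold, adjusted p = 0.00113). Zfp57, which guards imprints with Trim28, was 8.13-fold lower and Trim28 2.86-fold lower. The higher members included Hdac7, a partner of Mef2 factors (5.35-fold), and the heterochromatin enzyme Suv39h1 (3.33-fold). The number lower was 5 without cGR8 and 4 without RD1 or E14tg2. Higher calls numbered 2 without cGR8 and 1 without RD1, E14tg2 or myoblast replicate 2. The call of Trim28 was lost without cGR8, RD1, E14tg2, myoblast replicate 2 or myoblast replicate 3 (adjusted p = 0.0612, 0.116, 0.142, 0.0603 and 0.0599) and with median scaling, every probe tested or a replicate block (adjusted p = 0.0695, 0.116 and 0.0717). The call of Suv39h1 was lost without RD1, E14tg2 or myoblast replicate 2 (adjusted p = 0.0914, 0.0732 and 0.0508) and with median scaling or every probe tested (adjusted p = 0.14 and 0.0684). On the lower side signal was well above background for Zfp57 in 2 of 3 samples, and the size is approximate.

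Most SWI/SNF subunits, parts of the nucleosome remodeller that MyoD recruits, were not called. Of 27 tested 4 were higher and 2 lower, against 11.5% and 14.4% over all genes, with a median of -0.03. Smarcd3, the BAF60c subunit of muscle, stood at 5.25, 5.24 and 4.21 in myoblasts and 0.17, 0.57 and 0.69 in the lines (log2 change 4.42 ± 0.43 SE, 21.5-fold, adjusted p = 4.20e-04), while its paralogues Smarcd1 (log2 change -1.77 ± 0.59 SE, adjusted p = 0.0639) and Smarcd2 (log2 change -0.08 ± 0.39 SE, adjusted p = 0.900) were not called. Smarca2, an ATPase, was above background in no line and at -1.29, -0.81 and -0.64 in myoblasts (at least 12.9-fold, adjusted p = 4.59e-04), and the alternative ATPase Smarca4 was at 6.86, 7.34 and 6.65 and 6.63, 6.51 and 6.78 and not called (log2 change 0.31 ± 0.37 SE, adjusted p = 0.583). Arid1a was lower (log2 change -1.76 ± 0.51 SE, adjusted p = 0.0391). The number higher was 2 without cGR8 or E14tg2. The lower count was 0 without cGR8, E14tg2 or myoblast replicate 2, 1 without RD1 or replicate 3 and 4 without replicate 1. Smarcd1 was called lower without myoblast replicate 1 (adjusted p = 0.00229). The call of Arid1a was lost without cGR8, RD1, E14tg2 or myoblast replicate 2 (adjusted p = 0.124, 0.113, 0.145 and 0.0538) and with median scaling, every probe tested, a slide block, a replicate block or the mean of all probes (adjusted p = 0.133, 0.126, 0.0626, 0.0558 and 0.0536).

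At the nuclear envelope 5 of 20 genes were higher and 4 lower (median 0.27), against 11.5% and 14.4% over all genes. Lmna, which encodes the A-type lamins, was at 8.58, 8.45 and 7.25 in myoblasts and 2.80, 3.88 and 3.64 in the lines (log2 change 4.65 ± 0.51 SE, 25.2-fold, adjusted p = 6.96e-04). Lbr, the lamin B receptor, was 3.25-fold lower, and Nup210, a nuclear pore protein, was at 4.06, 3.92 and 3.85 in the lines against -1.15, -3.18 and -3.26 (log2 change -6.47 ± 0.60 SE, 88.7-fold, adjusted p = 3.53e-04). Syne1 had probes called in both directions, with its brightest probe at least 20.2-fold higher. The higher count was 3 without any of the 3 lines. Lower calls numbered 1 without RD1 or E14tg2 and 2 without myoblast replicate 3. The call of Lbr was lost without cGR8, RD1, E14tg2 or myoblast replicate 3 (adjusted p = 0.0923, 0.149, 0.148 and 0.0813) and with median scaling or every probe tested (adjusted p = 0.134 and 0.129). The call of Syne1 was lost with the mean of all probes (adjusted p = 0.0784).

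Enzymes that turn threonine and glycine into one-carbon units were lower more often than higher. Tdh, the first enzyme of threonine breakdown, stood at 7.81, 7.89 and 8.45 in the lines and -0.39, -3.48 and -4.01 in myoblasts (log2 change -10.68 ± 0.89 SE, 1642-fold, adjusted p = 2.28e-04). Gcat, which acts next, was at 4.71, 4.62 and 5.04 against 2.03, 2.36 and 0.94 (log2 change -3.01 ± 0.47 SE, 8.06-fold, adjusted p = 0.00304), and Gldc, which splits glycine, at 4.85, 4.14 and 4.26 against -2.81, -2.91 and -2.72 (log2 change -7.23 ± 0.37 SE, 150.1-fold, adjusted p = 5.57e-05). For Gcat every line lay above every myoblast sample. Tdh is among the genes named by a rule that required this, and Gldc was tested through its signal in the lines. Cbs was 32.4-fold and the folate receptor Folr1 11.2-fold lower. The list had 11 of 30 genes lower and 1 higher, with a median of -0.82 and slide medians of -0.64 to -0.68. The higher one was Aldh1l2 (6.77-fold), a mitochondrial folate enzyme. The number lower was 6 without RD1 and 5 without E14tg2, and the higher count 2 without myoblast replicate 1 or replicate 3. The call of Folr1 was lost without E14tg2 (adjusted p = 0.0667). Sizes are approximate where the lower group was partly at background, being well above it for Aldh1l2 in 1 of 3 and Gldc in 2 of 3 samples.

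Nutrient transporters were lower in 9 of 24 cases and higher in 1, with a median of -1.07 and slide medians of -1.26, -0.95 and -1.17. The glucose transporter Slc2a3 stood at 5.84, 6.73 and 6.64 in the lines and was measured in 1 myoblast sample, with levels of -2.79, -4.00 and -4.89 (log2 change -10.30 ± 0.59 SE, 1257-fold, adjusted p = 7.80e-05). Slc2a1, the widespread glucose transporter, was at 5.51, 5.46 and 5.52 against 2.27, 2.80 and 2.04 (log2 change -3.13 ± 0.37 SE, 8.74-fold, adjusted p = 9.91e-04). Both were lower, Slc2a1 while remaining well above background in every myoblast sample. The arginine and lysine transporter Slc7a3 was 65.2-fold lower and Slc38a4, which carries neutral amino acids, was above background in no myoblast sample (at least 69.5-fold). The 1 higher member was the fatty acid transporter Slc27a1 (3.73-fold). Higher calls numbered 0 without RD1 or E14tg2, 3 without myoblast replicate 1 and 2 without replicate 3. Apoe, a lipid carrier, was at 6.45, 6.66 and 6.89 in the lines and -0.18, -0.61 and -0.37 in myoblasts (log2 change -7.05 ± 0.36 SE, 133-fold, adjusted p = 5.39e-05). The call of Slc27a1 was lost without RD1 or E14tg2 (adjusted p = 0.0641 and 0.0542) and with median scaling (adjusted p = 0.0652). The lower group was well above background for Slc2a3 in 1 of 3 samples, so the size is approximate.

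**Figure D4:**
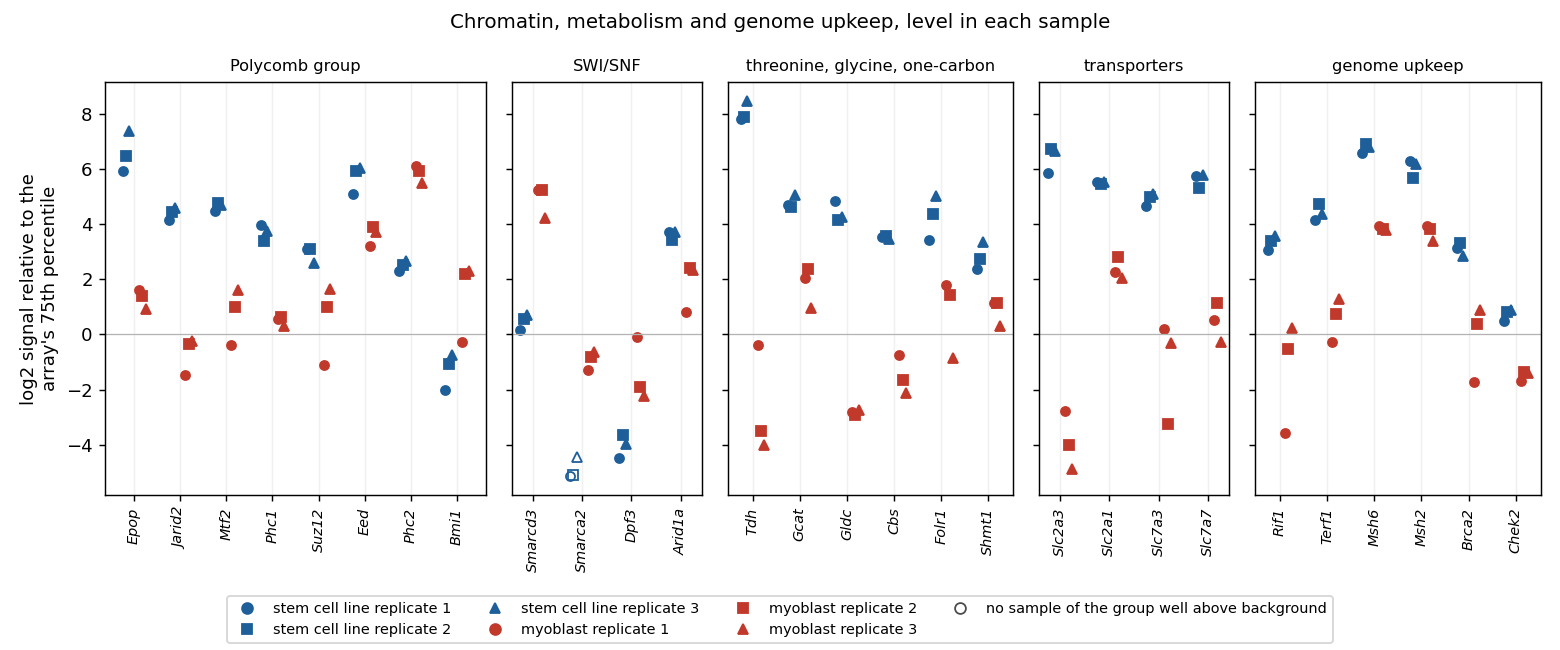
Level of chromatin, metabolism and DNA repair genes in each of the 6 samples (log2 signal, with 0 at the 75th percentile of the array), with open symbols where no sample of the group was well above background. Tdh, Gldc, Jarid2 and Epop lie apart between the groups, with every stem cell line above every myoblast sample. Tdh was named by a rule that required this, and Gldc was tested through its signal in the lines.

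Of 27 cyclins and kinases 4 were higher and 5 lower, against 11.5% and 14.4% over all genes, with a median of -0.48. Ccnd1, a D-type cyclin that answers growth factors, stood at 6.42, 6.51 and 6.26 in myoblasts and 3.21, 2.92 and 3.49 in the lines (log2 change 3.19 ± 0.36 SE, 9.13-fold, adjusted p = 7.77e-04), and Ccnd2 was 11.9-fold higher. Ccne1, which drives entry into S phase, was at 6.03, 6.37 and 6.33 in the lines against 4.75, 4.57 and 4.05 (log2 change -1.79 ± 0.38 SE, 3.46-fold, adjusted p = 0.0115). The lower count was 2 without cGR8, 0 without RD1, 1 without E14tg2 and 3 without myoblast replicate 3, and the higher count 2 without any of the 3 lines or without myoblast replicate 2. The call of Ccne1 was lost without RD1 or E14tg2 (adjusted p = 0.0742 and 0.0702) and with every probe tested (adjusted p = 0.0607).

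Of 7 inhibitors of cyclin-dependent kinases 4 were higher, against 11.5% over all genes. Cdkn1b (log2 change 0.04 ± 0.36 SE, adjusted p = 0.942), Cdkn1c (log2 change -1.35 ± 0.61 SE, adjusted p = 0.15) and Cdkn2d (log2 change 1.12 ± 0.46 SE, adjusted p = 0.123) were not called. These inhibitors were not a list of their own, and Cdkn1b, Cdkn1c and Cdkn2d were added after their values were seen. Cdkn2a, which encodes p16 and p19Arf, was at 6.53, 4.70 and 4.89 in myoblasts and 1.55, 1.69 and 1.23 in the lines (log2 change 3.88 ± 0.55 SE, 14.8-fold, adjusted p = 0.00202). Cdkn1a, encoding p21, was at 6.00, 6.61 and 4.93 against 2.49, 1.65 and 2.50 (log2 change 3.63 ± 0.53 SE, 12.4-fold, adjusted p = 0.0023), Cdkn2b was 21.6-fold higher and Cdkn2c stood at -0.24, 1.48 and -0.02 against levels near background in the lines (log2 change 6.31 ± 0.70 SE, 79.3-fold, adjusted p = 7.28e-04). Every myoblast sample lay above every line for all 4 genes, of which Cdkn2c was tested through its signal in myoblasts. Trp53 (log2 change -0.69 ± 0.40 SE, adjusted p = 0.26) and Mdm2 (log2 change 0.45 ± 0.50 SE, adjusted p = 0.552) were not called, and the p53 target Perp, also an epithelial junction gene, was 57.1-fold lower. Of 33 senescence and p53 genes 8 were higher and 2 lower, against 11.5% and 14.4% over all genes, with a median of 0.38. The number higher was 5 without RD1, E14tg2 or myoblast replicate 2, and the lower count 1 without any of the 3 lines or myoblast replicate 2. Signal in the lower group was well above background for Cdkn2c in 1 of 3 and Perp in 2 of 3 samples, so the size is approximate.

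Telomere and double-strand break repair genes were lower in 17 of 35 cases and higher in none, with a median of -1.56 and slide medians of -1.31, -1.31 and -1.30. Rif1, which binds telomeres and steers break repair, stood at 3.06, 3.38 and 3.56 in the lines and -3.55, -0.53 and 0.25 in myoblasts (log2 change -4.61 ± 0.91 SE, 24.4-fold, adjusted p = 0.00871). Terf1, a shelterin protein, was at 4.16, 4.72 and 4.37 against -0.27, 0.74 and 1.29 (log2 change -3.83 ± 0.48 SE, 14.2-fold, adjusted p = 0.00129), and the mismatch repair gene Msh6 at 6.56, 6.89 and 6.78 against 3.91, 3.81 and 3.78 (log2 change -2.91 ± 0.34 SE, 7.51-fold, adjusted p = 9.50e-04). Brca2 was 9.57-fold lower. Tert, the telomerase enzyme, missed the threshold, at -1.13, -0.81 and -0.09 in the lines and -1.33, -3.26 and -2.90 in myoblasts (log2 change -1.82 ± 0.59 SE, adjusted p = 0.0576). Lower calls numbered 11 without cGR8, 8 without RD1, 8 without E14tg2, 11 without myoblast replicate 2 and 22 without replicate 1. Tert was called lower without myoblast replicate 1 (adjusted p = 0.00156). On the lower side signal was well above background for Rif1 and Brca2 in 2 of 3 samples, and the size is approximate.

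Splicing regulators split, with 6 of 24 higher, 6 lower and a median of 0.14. Rbm24, which promotes muscle exons, stood at 2.99, 3.51 and 3.35 in myoblasts and -3.31, -5.88 and -6.31 in the lines (log2 change 8.45 ± 0.76 SE, 349-fold, adjusted p = 3.08e-04). Rbfox1 was 140.4-fold and Rbm20, the regulator of titin splicing, 41-fold higher. The epithelial regulator Esrp1 was at 2.20, 1.36 and 1.12 in the lines and -2.74, -3.23 and -3.31 in myoblasts (log2 change -4.65 ± 0.43 SE, 25.2-fold, adjusted p = 3.36e-04), and Rbpms was above background in no myoblast sample (at least 127-fold). Mbnl2 (log2 change 1.22 ± 0.64 SE, adjusted p = 0.212) and Ptbp2 (log2 change 0.82 ± 0.39 SE, adjusted p = 0.168) were not called. Mbnl2 was called higher without myoblast replicate 1 (adjusted p = 0.00113). Ptbp2 was called higher without myoblast replicate 1 (adjusted p = 0.0293). Sizes are approximate where the lower group was partly at background, being well above it for Rbm24 and Rbfox1 in 1 of 3 and Rbm20 and Esrp1 in 2 of 3 samples.

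Apoptosis regulators were higher in 6 of 24 cases and lower in 5 (median 0.06), against 11.5% and 14.4% over all genes. Casp8 was 11.3-fold higher and the BH3-only genes Bmf (12.8-fold) and Bik (8.69-fold) were lower. The higher count was 2 without cGR8, 1 without RD1 or E14tg2 and 3 without myoblast replicate 2, and the lower count 2 without any of the 3 lines and 3 without myoblast replicate 2. Of 9 connexins and pannexins 1 was higher, the channel gene Panx1 (3.92-fold), and 2 were lower, against the same shares, with a median of -0.71. Higher calls numbered 0 without RD1 and 2 without myoblast replicate 1, when 4 were lower. The call of Bik was lost with normexp correction (adjusted p = 0.107). The call of Panx1 was lost without RD1 (adjusted p = 0.0525) and with median scaling (adjusted p = 0.0676). The lower group was well above background for Bik in 1 of 3 and Bmf in 2 of 3 samples, so the size is approximate.

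Other genes with the largest differences among those measured in every sample included unlisted ones. Sct, the hormone secretin, stood at 10.60, 9.76 and 9.04 in myoblasts and 2.06, 1.53 and 1.89 in the lines (log2 change 7.97 ± 0.48 SE, 251-fold, adjusted p = 8.66e-05). Scx, a transcription factor of tendon, was at 6.24, 6.53 and 5.14 against -1.73, -2.48 and -1.86 (log2 change 7.99 ± 0.48 SE, 255-fold, adjusted p = 8.66e-05), and Serpinf1, a secreted inhibitor of blood vessel growth, at 7.54, 8.28 and 7.64 against 0.68, -0.41 and -0.54 (log2 change 7.91 ± 0.47 SE, 240.5-fold, adjusted p = 8.48e-05). Sct, Scx and Serpinf1 were named by a rule that required no overlap between the groups. The sialyltransferase St3gal1 (268-fold), the mitochondrial subunit Cox6a2 (293-fold), Tmem176b (244-fold) and the muscle cadherin Cdh15 (244-fold) were higher. Smagp (75.1-fold), Zfp947 (72.2-fold) and D7Ertd143e (83.2-fold) were lower.

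The labelled cell types were checked against their markers. Of 10 stem cell markers 9 were lower in myoblasts, against 14.4% over all genes, and 5 were above background in no myoblast sample. Their summed relative signal was 886 to 1030 in the lines and 1.18 to 4.95 in myoblasts. All 9 tested myoblast markers were higher, against 11.5% over all genes, with sums of 525 to 811 in myoblasts and 2.56 to 3.54 in the lines. Some of them, such as Chrna1 and Myog, were above background in no line and were tested through their myoblast signal. The 5 stem cell markers above were likewise tested through the lines, so for all of these the direction adds nothing. Myf5, the tenth, was well above background in none of the 6 samples and was not tested. Of 8 endothelial markers Kdr, Pecam1 and Vwf were well above background in every myoblast sample and every line, and Cdh5, Emcn and Erg in none. Kdr was at 5.04, 3.09 and 2.66 in myoblasts and 3.24, 2.66 and 2.54 in the lines and was not called, while Vwf (7.23-fold) and Tek (at least 2.71-fold) were lower. The endothelial sum was 6.93 to 34.7 in myoblasts and 9.52 to 13.3 in the lines. Of 8 leukocyte markers Cd14, Cd3e, Cd79a, Csf1r and Itgam were well above background in every sample of both groups, and Cd14 was called higher (6.59-fold). No sample was above background for Lyz2 of the leukocyte, Adipoq, Fabp4 and Lep of 6 adipocyte, S100b of 6 Schwann cell and Myh11 of 5 smooth muscle markers. The leukocyte sum was 26.5 to 93.6 in myoblasts and 14.8 to 28 in the lines, and the smooth muscle sum 133 to 333 against 18.7 to 56.2. Its members Acta2 (36.6-fold) and Des were higher and Cnn1 was above background in no myoblast sample (at least 58.2-fold lower). The neural sum was 46.9 to 85.7 against 5.55 to 12.6, with Nes by far its brightest member in myoblasts. Of 5 neural markers tested Nes alone was higher and 2 were lower, with a median log2 change of -1.52. Their lower count was 0 without any of the 3 lines or myoblast replicate 2, 1 without replicate 3 and 4 without replicate 1. The part of other cell types in the results was not tested. The call of Tek was lost without cGR8, E14tg2, myoblast replicate 2 or myoblast replicate 3 (adjusted p = 0.0712, 0.0655, 0.0701 and 0.0543) and with normexp correction (adjusted p = 0.416).

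Of 16 housekeeping genes 3 were higher and none lower, against 11.5% and 14.4% over all genes, with a median of 0.41. B2m, the light chain of MHC class I, was at 3.96, 5.04 and 4.94 in myoblasts and 1.91, 1.23 and 2.12 in the lines (log2 change 2.89 ± 0.46 SE, 7.42-fold, adjusted p = 0.00352), and Actb (log2 change 0.70 ± 0.41 SE, adjusted p = 0.263) and Gapdh (log2 change 0.50 ± 0.50 SE, adjusted p = 0.504) were not called. The number higher was 1 without RD1, E14tg2 or myoblast replicate 2, and 1 gene was lower without replicate 1. Of 7 strain-linked and Y-linked genes none was called by limma. Nnt, which is deleted in part in C57BL/6J mice, was at 2.08, 2.68 and 2.79 in myoblasts and 2.47, 1.87 and 2.62 in the lines on its single probe (log2 change 0.19 ± 0.41 SE, adjusted p = 0.759), so this probe did not separate the strains.

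The 3 lines were not alike at every gene. Hprt, a purine salvage enzyme, stood at 5.41, 5.46 and -2.12 in cGR8, RD1 and E14tg2 and at 3.95, 5.20 and 4.69 in myoblasts. E14tg2 alone was low, and the gene was not called (log2 change 1.70 ± 1.87 SE, adjusted p = 0.55). By chromosome, E14tg2 had a median difference from the mean of the other two lines of 0.34 on chromosome 8, against 0.00 to 0.14 on every other chromosome shown. Both of its arrays had it, at 0.40 and 0.33 on slides 3 and 1, with 74.5% and 76.5% of 1013 chromosome 8 probes above 0, against 60.8% and 59.7% of the probes elsewhere. On the same chromosome cGR8 differed by -0.25 and RD1 by -0.10. The cause was not tested.

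**Figure D5:**
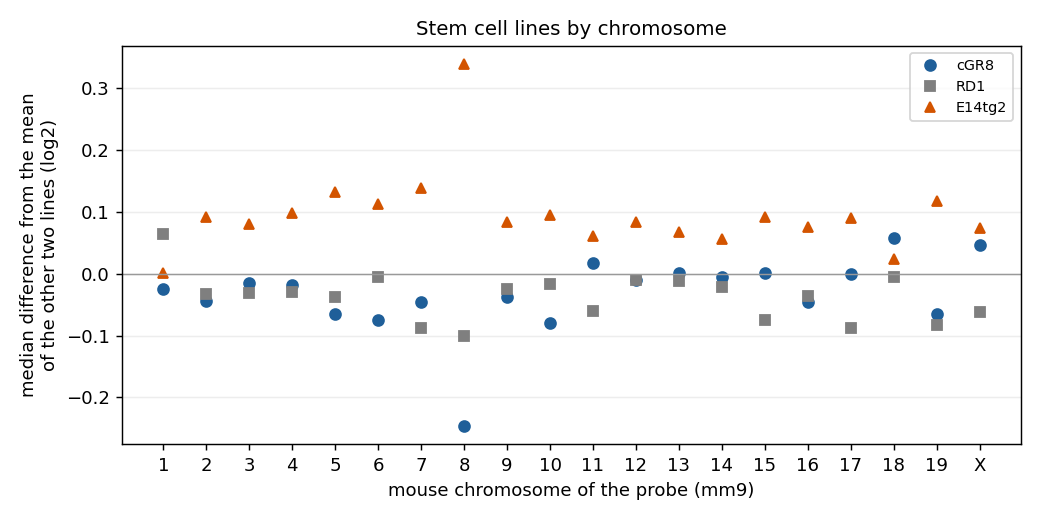
Median log2 difference of each stem cell line from the mean of the other two lines, by the mouse chromosome of the probe (mm9 positions). E14tg2 reaches 0.34 on chromosome 8 and at most 0.14 elsewhere, and cGR8 falls to -0.25 there.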

How the data were processed

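Per the file headers, Agilent Feature Extraction 10.7.3.1 with protocol GE1_107_Sep09 wrote a processed intensity for each spot, background-subtracted and detrended within the array. The raw mean and background intensities and the flags of 0 or 1 for spots above background or out of line come from the same deposited files. The authors' deposited value table, in log2, was used as an alternative. Per the labels' protocols, RNA was purified with miRNeasy and labelled with Cy3.

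Of 62976 spots per array 3671 controls were left out, and 59305 spots held 55681 probes, at mm9 positions. Genes were named through a RefSeq table by accession (26582 probes), symbol (2602) or synonym (492), and 26005 probes kept the file's name, giving 36095 gene names. Outlier spots were left out, each array's 75th percentile was subtracted from log2 intensity, and the brightest probe stood for a gene. Limma 3.58.1 (R 4.3.3) was fitted to the 6 samples with 4 residual and 3.67 prior degrees of freedom. Probes well above background in all samples of at least 1 group were tested on all of them, with Benjamini-Hochberg adjustment, and called where that p was below 0.05 and the difference at least 2-fold. A lower bound replaces the fold where a group had no signal above background. The pipeline was tested on simulated data. No label says whether cultures came from separate animals, so p-values measure only how far these 6 samples differ.

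The 34 gene lists and 12 marker lists and their members were chosen with earlier results of these data known. By rule the text could name 3 kinds of gene: the 15 largest called differences in each direction among genes measured in all samples and not overlapping, the 4 largest among a list's called members in each direction, and fixed key genes of a list. Some genes that the rule names are not reported here. Mycn, Eya2, Eya4, Pitx3, Tbx1, Igf2bp1, Lin28b, Ccn1, Id2, Trim28, Slc2a1, the inhibitors Cdkn1b, Cdkn1c and Cdkn2d, the members of cell type marker lists and the genes of the closing section outside this rule were chosen after their values were seen. Myoblast and stem cell samples share replicate numbers, which no label ties to a common source, and slides in another order. After removal of group means, same-numbered samples correlated across genes at r = 0.0782, 0.0177 and -0.192, and samples of the same slide at 0.0782, 0.126 and 0.23. Alternatives were 14 other settings and leaving out each of the 6 samples.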

Additional observations from a re-analysis of the deposited data

How the results depend on the processing

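Leaving out 1 sample gave 1407 to 3997 genes higher and 1525 to 4728 lower, and 1864 to 5790 probes higher and 2124 to 6711 lower. The highest counts came without the dim array of myoblast replicate 1. Weighting arrays by their quality, which gave that array a weight of 0.0929, called 4205 genes and 5583 probes higher and 5650 genes and 8008 probes lower. The weights were 0.733, 6.16 and 1.46 for cGR8, RD1 and E14tg2, and 4.66 and 0.351 for myoblast replicates 2 and 3. That fit thus rested mostly on RD1 and on myoblast replicate 2, whose sex label did not match. Scaling to the array median in place of the 75th percentile called 1421 genes and 1906 probes higher, with 34.8% of calls higher against 44.4%. It moved the median log2 change from -0.03 to -0.25, and changes there are relative to that shift. Testing every probe left 1742 genes and 2408 probes lower, and requiring signal in both groups left 1272 genes and 1540 probes lower, with 52.9% and 61.2% of calls higher. The replicate block called 2055 genes and 2722 probes higher and 2779 genes and 3921 probes lower, although no label ties the numbers to a common source. A block on the slide, without the second E14tg2 array, called 2215 genes higher and 2756 lower. The other settings kept the counts within 1.5 times, with gene counts alone for the mean of all probes. No named gene reversed under any setting that tested it. Of the named genes, 85 of the 99 higher and 65 of the 84 lower kept their call in every setting that tested them. Requiring signal in both groups tested only 106 of the named higher and lower genes, and the others had no call there. Of 54 named genes not called, weighting arrays called 23 and leaving out myoblast replicate 1 called 12. The 23 included the Y-linked Ddx3y and Eif2s3y, below background in myoblast replicate 2 alone. They also included Pak6 and Hoxc13, each of which stood out in a single sample of its group. Signal over background limits the lower genes most, since 31.3% of them were above background in no myoblast sample.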

Other observations

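Imprinted and host-gene RNAs outside the lists differed in both directions, and these genes were chosen after their values were seen. Peg3, a paternally expressed zinc finger gene, was higher on both of its probes (log2 change 3.87 ± 0.78 SE and 4.01 ± 0.68, adjusted p from limma = 0.0097 and 0.00449). Plagl1, another imprinted zinc finger gene, was higher on all 4 of its tested probes, by 2.20 to 5.85, and its brightest probe stood at 2.32 in myoblast replicate 1 against 6.88 and 6.93 in the other two. The noncoding RNA Meg3 was lower on 3 probes (-3.65, -2.64 and -2.67) and Mirg, from the same imprinted cluster, on 2 (-3.33 and -3.61). Peg10 was lower on both of its probes (-2.42 and -2.17), while Dlk1 (-0.90) and Cdkn1c (-1.35) were not called. Thus genes of 1 parental origin did not all lie on the same side. Among microRNA host genes Mir100hg was higher by 5.10 ± 0.54 SE (adjusted p = 0.000595) and Mir22hg by 2.89 ± 0.61 (adjusted p = 0.012), and Mir205hg was above background in no myoblast sample (at least 6.35-fold lower, adjusted p = 0.00358). On the brightest probe the call of Meg3 was lost without cGR8, RD1, E14tg2 or myoblast replicate 2 and with no filter, that of Plagl1 without cGR8, E14tg2 or myoblast replicate 2, that of Peg3 without E14tg2, that of Mir22hg without E14tg2 and with median scaling, and that of Mir205hg with normexp correction (limma adjusted p from 0.0514 to 0.103).

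Single samples stood apart from the other two of their group by more than 4-fold at different numbers of the 21258 genes tested. They were above at 88 genes in cGR8, 31 in RD1, 6 in E14tg2, 1843 in myoblast replicate 1, 29 in replicate 2 and 114 in replicate 3. They were below at 42, 20, 21, 576, 226 and 45 genes in the same order. The dim array had the most in each direction, and the genes below were chosen after their values were seen. In cGR8 the matrix protein Mgp stood at -0.41 against -7.06 and -6.76 in RD1 and E14tg2, the caveolar protein Cavin2 at 0.39 against -6.06 and -5.77, and S100a4 at 2.85 against -2.52 and -2.44. RD1 held the kinase Pak6 at 4.27 against -2.54 and -2.41. Myoblast replicate 1 held the homeobox gene Barx2 at 6.66 against -1.42 and -1.34 on its brighter probe. On its other probe replicate 1 was not well above background, at -2.68, while replicates 2 and 3 were, at -4.37 and -4.78. Myoblast replicate 2 held Hoxc13 at 1.01 against -2.55 and -2.36. Replicate 3 was low in Ckm, the muscle creatine kinase, at -3.19 against 0.98 and 1.11, and in Thy1 at -1.33 against 1.35 in each of the others.

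Promoter letters were counted for the 11416 of 21258 tested genes that matched a RefSeq window of 300 bases, on both strands. The E-box form CAGCTG was in 20.5% of the windows of higher genes, 15.9% of those of lower genes and 15.8% of those of all tested genes. The form CACCTG was in 18.3% of higher, 24% of lower and 19.1% of all tested windows. The octamer core TTTGCAT was in 3.11%, 4.25% and 3.37%. The median number of CpG in a window was 18 for higher genes, 15 for lower genes and 20 for genes not called. No test was made, and these counts say nothing of what binds there.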
